A study of Drosophila melanogaster with 3 samples.

Results

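The genes described here encode intraflagellar transport proteins of Drosophila melanogaster. They were gathered around Oseg5, whose ratio of mutant to control signal was among the lowest in ovaries with an sva53 mutant germ line. That direction rests on how the deposited ratio was read, as given below. The list held 10 names: Oseg1 to Oseg6, rempA, nompB, btv and Klp64D. A gene was kept where the platform annotation paired a feature with its symbol alone, which left 6 measured genes on 8 features, of 10805 genes on the array. These were Oseg1, Oseg2, Oseg4, Oseg5, Oseg6 and nompB. The other 4 names (Oseg3, an older name of rempA, together with rempA itself, btv and Klp64D) had no feature of their own and were not analysed here. The group was chosen by the measured ratio of Oseg5 in this same comparison, with the other ratios known, so the members' ratios below are a description. Where calls of the fit over the whole array are counted for them, the count is part of that description and supports nothing.

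Intraflagellar transport is the movement of protein trains along the axoneme of a cilium, the microtubule-based projection used for sensing or beating. Trains of the IFT-B complex are carried outward by kinesin-II, and the IFT-A complex works with cytoplasmic dynein 2 on the way back. In flies, cilia that depend on this transport are best known from sensory neurons, while the sperm flagellum is assembled without it. Cells of the fly ovary are not known for such cilia. Oseg1, Oseg4 and Oseg6 encode the IFT-A proteins IFT122, IFT121 and IFT144. Oseg2, Oseg5 and nompB encode the IFT-B proteins IFT172, IFT80 and IFT88.

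RNA of ovaries was compared on 3 Agilent arrays with 2 colours. The mutant samples, in Cy3, were ovaries with a germ line grown from sva53 pole cells, taken from embryos of germline clones homozygous for sva53[M1] (made with the FLP/FRT/DFS system); each was a pool of 2 ovary pairs, from 3 independent experiments. The control, in Cy5, was a single RNA from 3 ovary pairs with a germ line grown from sva53/+ pole cells, and it served on all 3 arrays. Both kinds of pole cell were placed in host embryos laid by osk-homozygous females, and flies were about 7 days old. The follicle cells and all other somatic cells were therefore host cells in both channels, and the germ line's own genotype and a maternal effect of the clone cannot be told apart. Array 1 carried mutant pool 1, array 2 pool 2 and array 3 pool 3. Each ratio rests on the same control RNA, so its SD over arrays leaves out the control's own spread. No array had the dyes swapped, and a feature's own dye bias would remain in its mean.

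Values are log2 ratios of sva53 over sva53/+, where 0 means equal signal, given as the mean over 3 arrays with the SD. The deposited ratio was read as Cy5 over Cy3 and its sign turned, which is the software's usual form but is not stated; with the other numerator every direction below turns. The median over all 10805 genes was -0.003, the median SD of a gene was 0.114, and the SD over genes was 0.47, 0.32 and 0.31 on arrays 1, 2 and 3. No signal intensities were used here, so whether a feature lay above background is unknown, and ratios say nothing of how much transcript an ovary holds. In such bulk RNA, fewer cells of a type and less RNA per cell cannot be told apart. Of marker lists for the tissue, 8 of 9 ovary genes did not pass the test described below, with a list median of -0.12, and cup (0.46 ± 0.06, SD, n = 3), which encodes a translational repressor, rose. Over all genes 13.4% passed that test, so the ovary count is near the share over the whole array. The ovary list mean was -0.37, -0.03 and 0.09 on arrays 1, 2 and 3, and the yolk protein genes Yp1 and Yp2 read -1.27 and -1.49 on array 1 against 0.13 and 0.04 on array 3. Among the other ovary genes the lowest on array 1 was fs(1)N, at -0.38. Pool 1 thus stood apart in Yp1 and Yp2, and results without it are given below. A ratio does not show how much of a marker was present.

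Oseg5 stood far from the other transport genes. Its single feature, number 3905, read -2.19 on array 1, -1.88 on array 2 and -1.81 on array 3. All pools were thus low by a similar amount, at 22.0%, 27.1% and 28.6% of the control signal. The mean was -1.96 ± 0.20 (SD, n = 3), a 3.89-fold lower signal in the mutant, or 3.89-fold higher if the numerator was Cy3. Among the 10805 genes Oseg5 had the 12th lowest mean, and it ranked 49th, 6th and 21st from the lowest on arrays 1, 2 and 3; with the other numerator these are ranks from the highest. By size in either direction its mean ranked 18th. The rest of the transport genes lay between -0.18 and 0.52, so no other member came within 1 log2 unit of it. With no second feature on the array, this value had no check from a different probe.

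**Figure D1:**
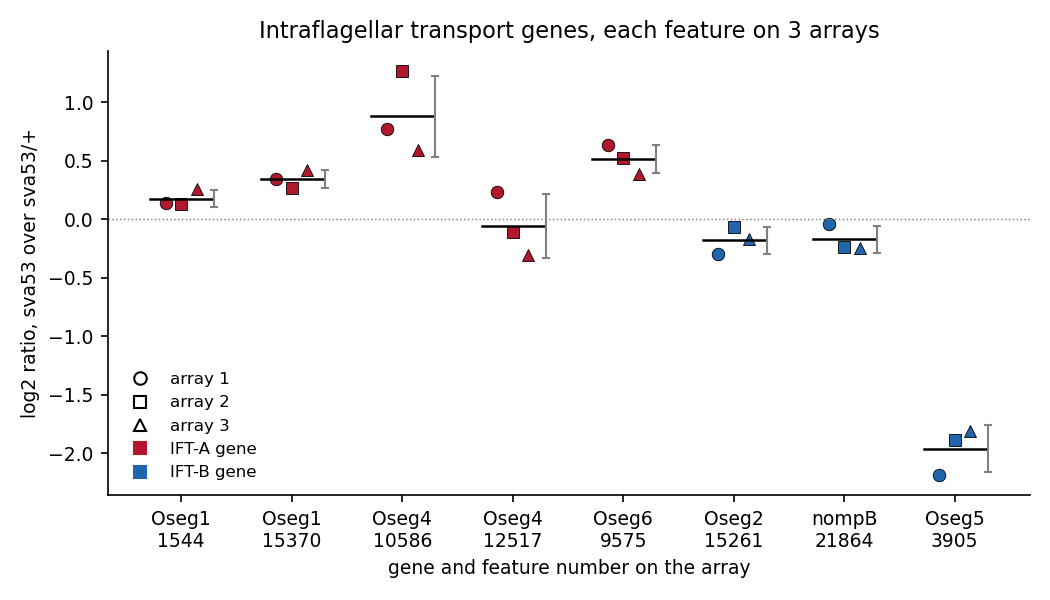
Log2 ratio of sva53 over sva53/+ for each of the 8 features of the 6 transport genes, with the gene and the feature number on the horizontal axis. Circles, squares and triangles are arrays 1, 2 and 3, black lines are means and grey bars are 1 SD (n = 3). The Oseg5 feature lies between -2.19 and -1.81, and the others between -0.31 and 1.27.

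The other IFT-B members were slightly below the control on every array. Oseg2, which encodes the large IFT172 protein at the train's periphery, read -0.29, -0.06 and -0.17 on arrays 1, 2 and 3. Its mean was -0.18 ± 0.12 (SD, n = 3), at the 21.5th percentile of all genes. For nompB, a gene known from the loss of mechanosensory responses in its mutants, the values were -0.04, -0.24 and -0.24, with a mean of -0.17 ± 0.12 (SD, n = 3) at the 22.0th percentile. In both genes 1 array was close to 0, array 2 for Oseg2 and array 1 for nompB. Their average was -0.16, -0.15 and -0.21 on the 3 arrays, against -2.19 to -1.81 for Oseg5.

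The 3 measured IFT-A members were above the control on every array when the features of a gene were averaged. Oseg6 read 0.63 on array 1, 0.52 on array 2 and 0.39 on array 3, with a mean of 0.52 ± 0.12 (SD, n = 3) at the 96.9th percentile of genes, a 1.43-fold higher signal. Oseg1 read 0.24, 0.20 and 0.34, with a mean of 0.26 ± 0.07 (SD, n = 3). Oseg4 read 0.51, 0.58 and 0.14, with a mean of 0.41 ± 0.23 (SD, n = 3). Averaged over these 3 genes, the IFT-A ratio was 0.46, 0.43 and 0.29 on arrays 1, 2 and 3. Gene averages of the IFT-A and IFT-B members did not overlap on any array, but the lower feature of Oseg4, described next, is an exception. This separation covers only the members, which were chosen with their ratios known. Among 7 further IFT-B genes, 3 were below 0 on every array and 1, IFT57, was above. IFT57 read 0.67, 0.95 and 0.66, above all 3 IFT-A members on every array. Of all genes, 29.2% were above 0 on every array and 29.7% were below 0 on every array.

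In order, the means ran from Oseg5 through Oseg2 and nompB to Oseg1, Oseg4 and Oseg6. The neighbours Oseg2 and nompB differed by less than the SD of either. The array values of Oseg4 spanned 0.14 to 0.58 and overlapped those of both Oseg1 and Oseg6. Oseg1 and Oseg6 did not overlap, the highest array of Oseg1 (0.34) lying just under the lowest of Oseg6 (0.39).

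The features of Oseg1 and Oseg4 gave different pictures of these means. Oseg1 had feature 1544 at 0.18 ± 0.07 and feature 15370 at 0.34 ± 0.08 (SD, n = 3), both above 0 on all arrays. Oseg4 had feature 10586 at 0.78, 1.27 and 0.60 on arrays 1, 2 and 3, with a mean of 0.88 ± 0.35 (SD, n = 3). Its other feature, 12517, read 0.24, -0.11 and -0.31, with a mean of -0.06 ± 0.27 (SD, n = 3). The higher value of Oseg4 therefore came from 1 of its 2 features. Of the 4814 genes with 2 features, the median difference between features was 0.149 log2 units. The difference in Oseg4 was 0.94, exceeded in 1.70% of these genes, while that in Oseg1 was 0.165. Which transcripts each feature covers is not given in the sources used here.

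**Figure D2:**
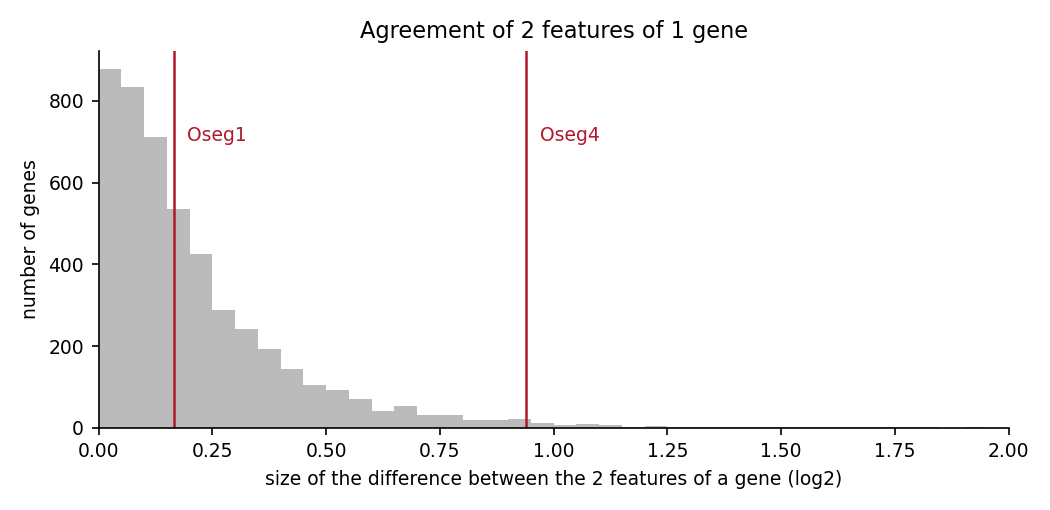
Size of the difference between the mean log2 ratios of the 2 features of a gene, over 4814 genes with 2 features; 7 genes with a difference of at least 2 lie beyond the axis. Bars count genes, and red lines mark Oseg1 at 0.165, near the median of 0.149, and Oseg4 at 0.94, in the upper tail.

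Set among all genes, 2 of the 6 members passed an adjusted p under 0.05, Oseg5 lower and Oseg6 higher. The test was limma on all 15415 tested features or genes, against a ratio of 0, with Benjamini-Hochberg adjustment. Its p, like the SD, leaves out the spread of the control RNA, and it cannot show a dye bias. Over the 10805 genes 13.4% passed, 6.36% higher and 7.04% lower, and nothing is read from the members' count because this contrast was known when they were chosen. The median of the 6 members was 0.04, against -0.003 for all genes. With any array left out limma called 0 genes, members included, while the genes at an unadjusted p under 0.05 numbered 3211 without array 1, 2245 without array 2 and 2946 without array 3. When single features were tested in the same way, 4 of the members' 8 features passed, beside 15.3% of all annotated features: feature 15370 of Oseg1, feature 10586 of Oseg4 and the feature of Oseg6 on the higher side (8.05% of all) and that of Oseg5 on the lower (7.24%). The mean of Oseg5 was -1.85 without array 1 and lay between -2.03 and -1.85 over the left-out arrays, and that of Oseg6 between 0.46 and 0.58.

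**Figure D3:**
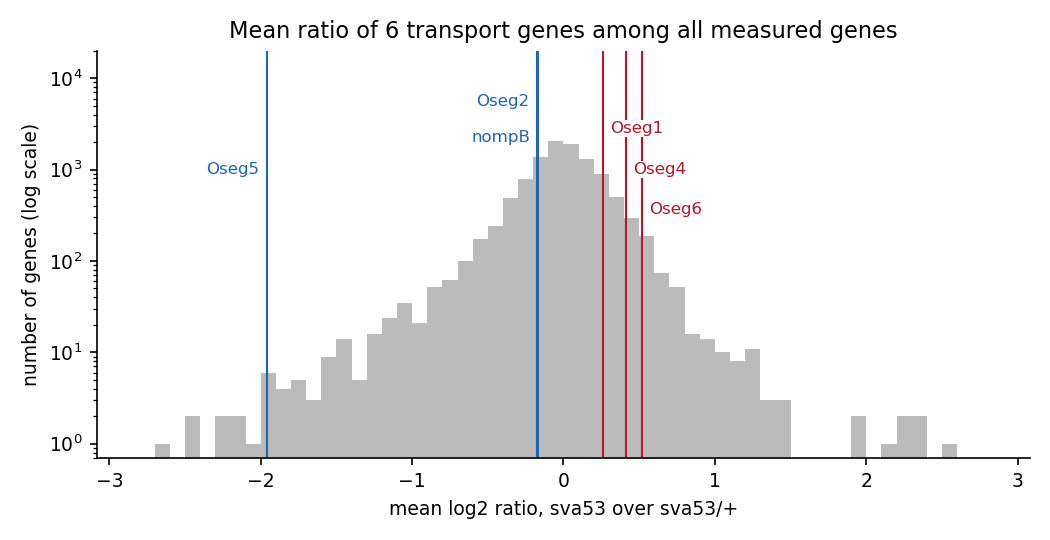
Mean log2 ratio of sva53 over sva53/+ for 10805 genes in bins of 0.1, with the number of genes on a log scale. Lines mark the IFT-A members (red) and the IFT-B members (blue). Oseg5 at -1.96 lies in the sparse lower tail, and the other 5 lie between -0.18 and 0.52.

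Other parts of the same machinery were described from lists of known ciliary genes. The share to set beside each list's count is that over all genes, 6.36% called higher and 7.04% lower. Of 13 further genes of the transport trains and their motors, 3 were higher, 1 was lower and 9 did not pass the limma test, with a list median of 0.20. The remaining IFT-A gene measured, IFT43, read 0.40, 0.39 and 0.35 on arrays 1, 2 and 3 and rose (0.38 ± 0.02, SD, n = 3; limma adjusted p 0.035). With the 3 IFT-A members, all 4 measured IFT-A genes were thus above 0 on every array, with means from 0.26 to 0.52, and the exception is the lower feature of Oseg4. 

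The further IFT-B genes did not share a direction. IFT57 read 0.67, 0.95 and 0.66 and rose (0.76 ± 0.16, SD, n = 3; limma adjusted p 0.034), the highest value in the list. IFT52, whose protein is part of the core of the complex, read -0.23, -0.36 and -0.30 and fell (-0.30 ± 0.06, SD, n = 3; limma adjusted p 0.045). IFT20 (-0.30), Ttc30 (-0.17) and IFT46 (-0.15) lay below 0 without passing, and IFT54 (0.39) and Ttc26 (0.23) above 0 without passing, the latter with an exact 0 on array 1 that may stand for a ratio not measured. Over all 10 measured IFT-B genes, 6 were below 0 on every array and 1, IFT57, was above 0 on every array. Oseg5, at -1.96, was the lowest of the 10, followed by IFT52.

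The motor genes lay nearer to 0 than Oseg5. Klp68D, a motor subunit of kinesin-II and a partner of the unmeasured Klp64D, read 0.48, 0.31 and 0.26 and rose (0.35 ± 0.11, SD, n = 3; limma adjusted p 0.048), with its features at 0.43 and 0.27. It did not pass with a robust prior or with the edge features kept (limma adjusted p 0.051 in both). Kap3, which encodes the accessory subunit of kinesin-II, had a mean of 0.22 ± 0.08 (SD, n = 3) and did not pass. CG3769, listed as a light intermediate chain of dynein 2, had 0.20 ± 0.08 (SD, n = 3) and did not pass either.

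In the list for the BBSome, the cargo adaptor that rides on transport trains, BBS1 fell and the other 5 of 6 genes did not pass. BBS1 read -0.66, -0.48 and -0.55 (mean -0.56 ± 0.09, SD, n = 3; limma adjusted p 0.034). The list median was 0.02, and BBS1 was named because it was the lowest called gene of the list. The transition zone is the gate at the base of the cilium. There B9d1, for a protein of the gate's membrane-linked complex, read -1.75, -1.63 and -1.07 and fell (-1.48 ± 0.36, SD, n = 3; 2.79-fold; limma adjusted p 0.034). The other 5 of 6 transition zone genes did not pass, and the list median was -0.36, with dila at -0.84, Cep290 at -0.37 and Cc2d2a at -0.35. Of the listed ciliary genes, B9d1 came closest to Oseg5 in size.

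Axonemal dyneins drive ciliary and flagellar beating. Of 16 genes for these motors and their assembly factors, 2 were higher, 1 was lower and 13 did not pass, with a median of -0.03. CG10859, listed as a predicted intermediate chain, read -1.42, -0.94 and -1.19 and fell (-1.19 ± 0.24, SD, n = 3; limma adjusted p 0.034). The assembly factor genes Zmynd10 (0.51 ± 0.20, SD, n = 3; limma adjusted p 0.049) and Dnaaf5 (0.47 ± 0.04, SD, n = 3; limma adjusted p 0.034) rose. Zmynd10 no longer passed with a robust prior (adjusted p 0.051 with limma) or with the edge features kept (adjusted p 0.055 with limma).

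Centrioles form the basal body under a cilium and also organise the spindle in dividing cells. Of 9 centriolar genes 3 were higher and 6 did not pass, with a median of 0.19. Cep135 read 0.69, 0.48 and 0.39 and rose (0.52 ± 0.15, SD, n = 3; limma adjusted p 0.038), as did Sas-6 and spd-2, both at 0.27 (limma adjusted p 0.049 and 0.048). With a robust prior Sas-6 and spd-2 did not pass (limma adjusted p 0.052 and 0.051), nor did spd-2 with its feature of smallest SD (0.19). Cytoplasmic dynein 1 is the general minus-end motor of the cell and moves cargo to the oocyte. Of its 8 listed genes 6 were measured, of which 2 were lower and 4 did not pass. The light chain gene robl read -0.40, -0.48 and -0.72 and fell (-0.53 ± 0.17, SD, n = 3; limma adjusted p 0.040). The heavy chain gene Dhc64C was called lower (-0.37 ± 0.06, SD, n = 3; limma adjusted p 0.037), but its 3 features read 0.28, -1.79 and 0.39, so that call rests on 1 feature. With its feature of smallest SD it was called higher (0.39).

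**Figure D4:**
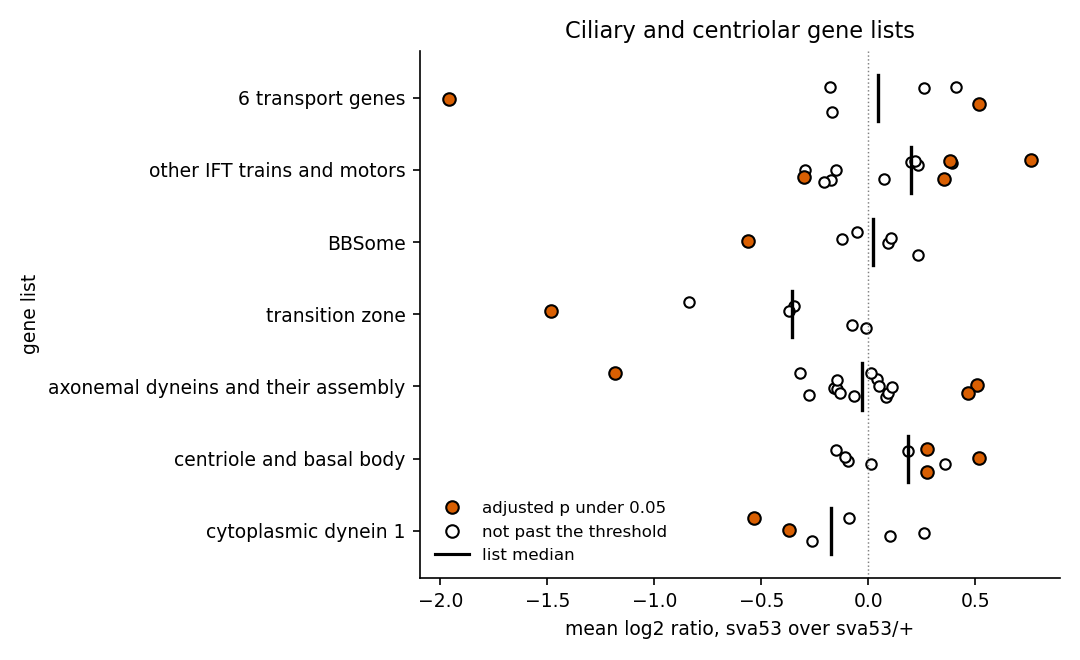
Mean log2 ratio of sva53 over sva53/+ for genes of 7 lists, each point a gene averaged over its features and 3 arrays, spread vertically at random within its list. Orange points passed an adjusted p under 0.05 with limma, open points did not, and black lines are list medians. Oseg5 (-1.96), B9d1 (-1.48) and CG10859 (-1.19) lie furthest to the left.

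Markers of cells with cilia, or of other tissues that a dissection could hold, were set beside these values. For the counts, the share over all genes was again 6.36% higher and 7.04% lower. Of 6 genes listed as markers for ciliated sensory neurons (Rfx, fd3F, nompA, nompC, nan and ato) 0 passed in limma. Their means lay between -0.11 (nan) and 0.07 (nompA), and the array value of largest size was 0.27, in nompA. Their list mean was -0.002, 0.06 and -0.07 on arrays 1, 2 and 3. Of 5 pan-neuronal genes 0 passed, with means from -0.28 to 0.29 (nSyb). Of 17 testis genes 5 were lower and 0 higher, with a median of -0.31; S-Lap2, for a sperm aminopeptidase, read -1.44, -1.29 and -1.69. The testis list mean was -0.32, -0.35 and -0.38 on the 3 arrays. The other 12 genes did not pass, and the list's part in the Oseg5 value was not tested. Of 7 fat body genes 3 were lower, Pepck1 (-1.80 ± 0.20, SD, n = 3), Lsd-1 (-1.71 ± 0.40, SD, n = 3) and Obp99b (-1.52 ± 0.63, SD, n = 3). The other 4 did not pass, with apolpp at -0.34 ± 0.68, Fbp1 at -0.03 ± 0.02, Lsp2 at 0.39 ± 0.87 and Fbp2 at 0.50 ± 0.44 (SD, n = 3). Fbp2 had an exact 0 on array 1 that may stand for a ratio not measured. The fat body median was -0.34 and the list means were -1.03, -0.34 and -0.56 on the 3 arrays. The part of this list in the Oseg5 value was not tested either. In the muscle and hemocyte lists 0 of 5 and 0 of 7 passed; Mlc2 had 0.30 ± 0.25 (SD, n = 3), and srp had -0.58 ± 0.90 (SD, n = 3) with values from -1.44 on array 1 to 0.36 on array 3.

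The measured neighbours of Oseg5 on the chromosome had ratios much nearer to 0 than its own. RefSeq's Release 6 assembly places Oseg5 on arm 2L, and the deposited values name no genome build, so only gene order was used. CG31674, whose annotated span overlaps that of Oseg5, read -0.23, -0.25 and -0.13 (mean -0.20 ± 0.06, SD, n = 3) and did not pass. Spn38F, the next gene on the other side, encodes a serpin and read 0.24, 0.29 and 0.08 (mean 0.20 ± 0.11, SD, n = 3) and did not pass. Of the 5 annotated genes on each side 8 were measured, with means from -0.26 to 0.24. The median size of a mean over all genes was 0.15. Of the 8, twit (-0.26) was the 1 that passed, beside 13.4% of all genes. Among the other members, Oseg1 and Oseg2 and Oseg4 lie on arm 3L, Oseg6 on 2R and nompB on 2L. CG13667, which overlaps Oseg1, read -0.71, -0.61 and -0.49 and fell (-0.60 ± 0.11, SD, n = 3; limma adjusted p 0.034), opposite in sign to Oseg1. The engulfment receptor gene drpr, which overlaps Oseg4, had -0.25 ± 0.13 (SD, n = 3) and did not pass.

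**Figure D5:**
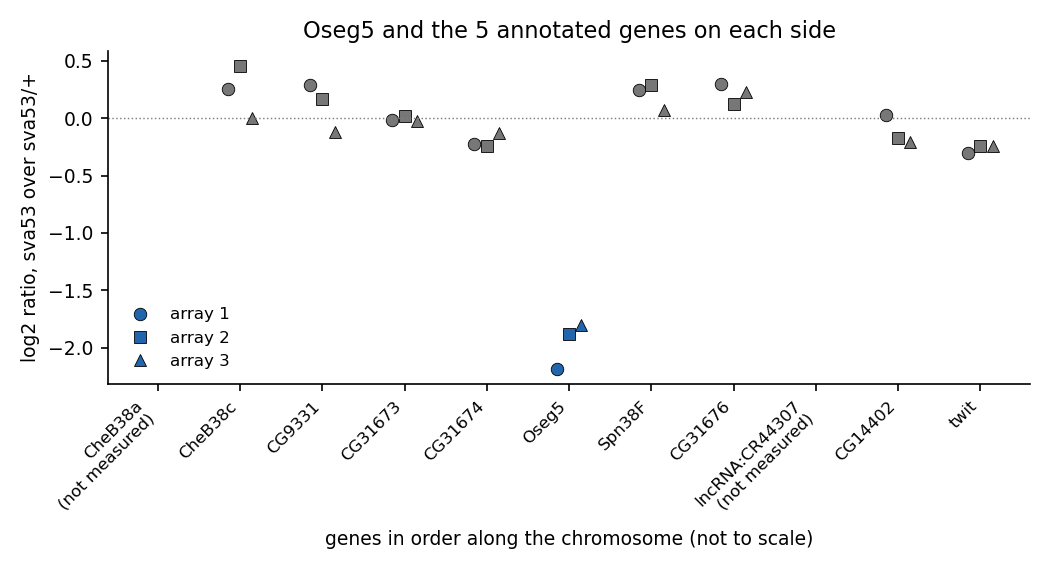
Log2 ratio of sva53 over sva53/+ on arrays 1 (circles), 2 (squares) and 3 (triangles) for Oseg5 (blue) and the 5 annotated genes on each side (grey), in chromosome order and not to scale. The 8 measured neighbours lie between -0.30 and 0.46, and Oseg5 between -2.19 and -1.81.

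The genes whose 3 array values lay closest to those of Oseg5, by Euclidean distance over the 3 arrays, were CG32572 (distance 0.365 log2 units), ATPsynepsilonL (0.369), Hira (0.413), CG8128 (0.461) and CG31740 (0.469). Their means ran from -2.18 for Hira, a histone chaperone gene, to -1.71 for CG8128. ATPsynepsilonL, for a variant form of an ATP synthase subunit, was the steadiest, at -2.18, -2.11 and -2.10 on arrays 1, 2 and 3. All were picked for this likeness, and with 3 arrays that share a control RNA the distance describes these samples only. No other intraflagellar transport gene was among them.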

How the data were processed

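The authors deposited 1 log10 ratio of both dye channels for each of 22575 features and 3 arrays. Per the submitters' processing notes, Agilent Feature Extraction 7.1 was used. The numerator, any filter, the dye normalisation and the background correction are, in the sources used here, not given. Per the labels, 100 ng of total RNA was amplified before labelling. The ratios were turned to mutant over control and converted to log2. Inside the grid edge each array had a median log10 ratio of 0, so none was centred. The 636 unannotated edge features were left out, and 17329 features were named by the platform annotation. Features of a gene were averaged. Each of 15415 features or genes was tested against 0 with limma 3.58.1 in R 4.3.3 (intercept, eBayes, 2-sided) and Benjamini-Hochberg adjustment at 0.05. The procedure was run on simulated arrays with independent noise on each. Such arrays cannot show an error that the real arrays share through the common control RNA or the dyes. A limma adjusted p is meant wherever one is given. The number of arrays limits the precision.

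The members, lists and tests were chosen with earlier results of these data known. Listed symbols were matched through RefSeq's gene table, and list counts cover measured genes only. Measured were 6 of 9 transition zone, 16 of 21 axonemal dynein, 9 of 16 centriolar and 6 of 8 dynein 1 genes. Of the markers, 6 of 7 ciliated neuron, 5 of 9 neuron, 17 of 24 testis, 5 of 9 muscle, 7 of 9 fat body and 9 of 11 ovary genes were measured. Besides the members, the text names the highest and lowest called gene of each list (with none called, the one of largest size), the 5 genes nearest to Oseg5, and neighbouring or overlapping genes; others were chosen after their values were seen. Alternatives were array centring, scaling, a robust prior, array weights, the feature of smallest SD, single features, removal of exact zeros, edge features kept, a stricter threshold, a turned sign and each array left out.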

Additional observations from a re-analysis of the deposited data

How the results depend on the processing

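Oseg5 was chosen for its ratio on these arrays, so its values under other settings are no independent check. With a turned sign the members read 1.96 (Oseg5), 0.18 (Oseg2), 0.17 (nompB), -0.26 (Oseg1), -0.41 (Oseg4) and -0.52 (Oseg6). Oseg4 read -0.0593 with its feature of smallest SD, 12517, and 0.88 with feature 10586, which passed; feature 15370 of Oseg1 passed at 0.34. With array weights Oseg1 (0.22), Oseg4 (0.51) and nompB (-0.22) also passed, and the calls rose to 4009 genes from 1448, to 5 of 6 members, and to 10, 2, 4, 7, 5 and 4 in the lists of other trains and motors, BBSome, transition zone, axonemal dyneins, centriole and dynein 1. The feature of smallest SD gave 2465 genes, 2 in the BBSome and 3 in the transition zone, where scaled arrays gave 2. A robust prior gave 1 centriolar call. At an adjusted p under 0.01 all these counts were 0. With 1 array left out each count was 0, with Oseg5 from -2.03 to -1.85 and Oseg6 from 0.46 to 0.58; fewer arrays leave fewer degrees of freedom. Of 300 comparisons for 30 other named genes, 1 reversed, Dhc64C with its feature of smallest SD (0.388). A call was lost in 69 with an array left out and in 7 under other settings, and gained in 6. A robust prior and edge features kept leave a gene's mean as it was, so comparisons under these settings could not reverse. Of these genes only srp had values of both signs over the arrays. For the others, leaving an array out, scaling or array weights could not reverse the mean either. A gene with 1 feature keeps its value with the feature of smallest SD, and a gene without exact zeros keeps its mean when zeros are removed. Few reversals were thus possible, and their count does not show how steady these genes are. No paired analysis was possible because the control was 1 RNA with no replicate number. Intensities were not used here, so signal over background is unknown.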
